A study of Mus musculus with 28 samples.

Results

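Neural stem cells cultured from the mouse tail were set against neural stem cells cultured from the mouse brain, to describe which gene families, pathways and regional identity genes differed between them and which stayed equal. The comparison used 4 of the 28 RNA-seq samples of the series and 2 of its 11 groups. These were 2 samples of tail pNSCs (peripheral neural stem cells, that is, neural stem cells found outside the central nervous system) and 2 samples of brain NSCs, both chosen by sample title. By the account of the study both lines came from Nes-GFP mice, in which regulatory elements of Nestin, an intermediate filament gene of neural progenitors, drive green fluorescent protein. The sample labels do not name the transgene, and they list the strain C57BL/6, whereas the methods describe transgenic mice crossed to CD1 or CD1/C3H stock of both sexes.

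Tail pNSCs were grown from GFP+ cells sorted from tails at postnatal day 1 to 5 and cultured for 3 weeks on gelatin in NSC medium with 10 ng/mL EGF and 10 ng/mL bFGF. Brain NSCs were grown from the whole brain of postnatal or adult mice in the same medium over several passages. Clusters of pNSCs were picked singly and were usually clonal, so a difference between tail and brain cannot be told apart from a difference between 2 cell lines. The 2 samples per group are described as biological replicates, without saying whether they were separate animals or separate cultures of a line. All p-values therefore measure the spread between these samples, which may be technical.

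In the embryo, a neural progenitor receives an address along the head-to-tail axis and along the back-to-belly axis of the neural tube, and cultured neural stem cells retain part of it. Forebrain progenitors express Otx2 and Nr2e1, the region between midbrain and hindbrain expresses the En genes, and hindbrain and spinal cord express Hox genes, whose order along each chromosome cluster follows their order along the body. Across the neural tube, Zic and Pax7 mark the dorsal side and Nkx6-1, Nkx2-2 and Foxa2 the ventral side. What neural stem cells of all regions share is a set of progenitor genes such as Sox2, Nes and Olig2, active cell division, and low levels of the genes of mature astrocytes, oligodendrocytes and neurons.

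Sequencing depth was close to even, at 17843898 to 20697929 counts per sample. Gene levels are given in cpm, read counts scaled to a common library size by edgeR, which do not correct for gene length and so compare samples, not genes. A gene was called when edgeR's quasi-likelihood test gave an adjusted p (Benjamini-Hochberg) under 0.05 together with a difference of at least 2-fold. It was taken as equal within 1.5-fold when the whole 95% interval of its fold change lay inside that limit. A fold against a group with no count is given as a bound, computed with 3 counts in each library of that group. Log2 fold changes are tail pNSCs over brain NSCs, ± SE.

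Of 16948 genes tested, 1848 were called (10.9%), 731 higher in tail pNSCs (4.31%) and 1117 lower (6.59%). A further 8070 genes (47.6%) were equal within 1.5-fold. That share depended on level: none of the 4877 genes under 1 cpm could be placed within the limit, while 79.9% of the 9329 genes at 10 cpm or more could. Of those 9329 genes, 2.13% were higher and 3.21% lower. The median log2 fold change over all tested genes was 0. Among the 155 genes named in the text that were called, the largest adjusted p by edgeR was 0.00979.

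Both lines carried the markers of neural stem cells, except Prom1, which stayed below 1 cpm, and the markers of other tissues summed to far less. The summed level of 10 neural stem cell markers was 6803 and 6776 cpm in the tail pNSC samples and 7893 and 7706 cpm in the brain NSC samples. Keratinocyte markers summed to at most 0.577 cpm, leukocyte markers to at most 3.47 cpm, endothelial markers to at most 9.43 cpm, Schwann cell markers to at most 10.2 cpm and skeletal muscle markers to at most 12.6 cpm in any of the 4 samples. Fibroblast markers summed to 93.5 and 87.2 cpm in tail pNSCs against 11.7 and 15.2 cpm in brain NSCs, and to 77296 and 75584 cpm in the primary tail cells of the series. Most of that sum was Fbn1, a matrix microfibril gene also expressed outside fibroblasts, with 90.6 and 85.2 cpm in tail pNSCs against 11.3 and 14.5 cpm in brain NSCs. Col1a1 was also called higher, with 2.17 and 1.63 cpm in tail pNSCs against 0.289 and 0.416 cpm in brain NSCs. Further fibroblast markers were called higher at lower levels still, and none was called lower. Col1a2 and Pdgfrb had at most 1 count in any of the 4 libraries. Chondrocyte markers summed to 144 to 159 cpm, nearly all of it Sox9, which neural stem cells also express, and the cartilage collagen gene Col2a1 stayed below 0.2 cpm. Smooth muscle and pericyte markers summed to 81.7 and 84.0 cpm in tail pNSCs against 157 and 156 cpm in brain NSCs. Of that list Cspg4, which oligodendrocyte progenitors also express, had 37.7 and 36.4 cpm in tail pNSCs against 124 and 121 cpm in brain NSCs. The 1 other marker above 2 cpm, Acta2, went the other way and was not called. It had 41.6 and 45.9 cpm in tail pNSCs against 32.4 and 33.1 cpm in brain NSCs (log2 fold change 0.42). A further marker, below 2 cpm, was called higher in tail pNSCs. The part of the fibroblast and of the smooth muscle and pericyte markers in the differences below was not tested.

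Other features of these libraries set limits on the comparison. Brain NSCs had no count of the Y-linked genes, which tail pNSCs carried at low levels. Ddx3y, a Y-linked RNA helicase gene, had 8.79 and 8.36 cpm in tail pNSCs against no count in brain NSCs, and Xist, the RNA that silences an X chromosome, was high in both lines with 1508 and 1436 cpm in tail pNSCs against 1712 and 1856 cpm in brain NSCs. Ddx3y ran from 70.8 to 84.0 cpm in the other brain NSC samples of the series. Whether each tail pNSC sample held cells of both sexes, and so more than 1 clone, was not tested. On chromosome 1 the genes sat lower in tail pNSCs as a group, which is described last. The quasi-likelihood dispersion was pooled fully over genes (common biological coefficient of variation 2.58%), so the SE of a gene rests on its level and not on its own replicates. Of the 235 genes named here, 75 overlap another annotated gene on the same strand, among them Hoxa3 with Hoxa4 to Hoxa6 and Hoxd4 with Hoxd3, and reads in such stretches cannot be assigned with certainty.

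**Figure D1:**
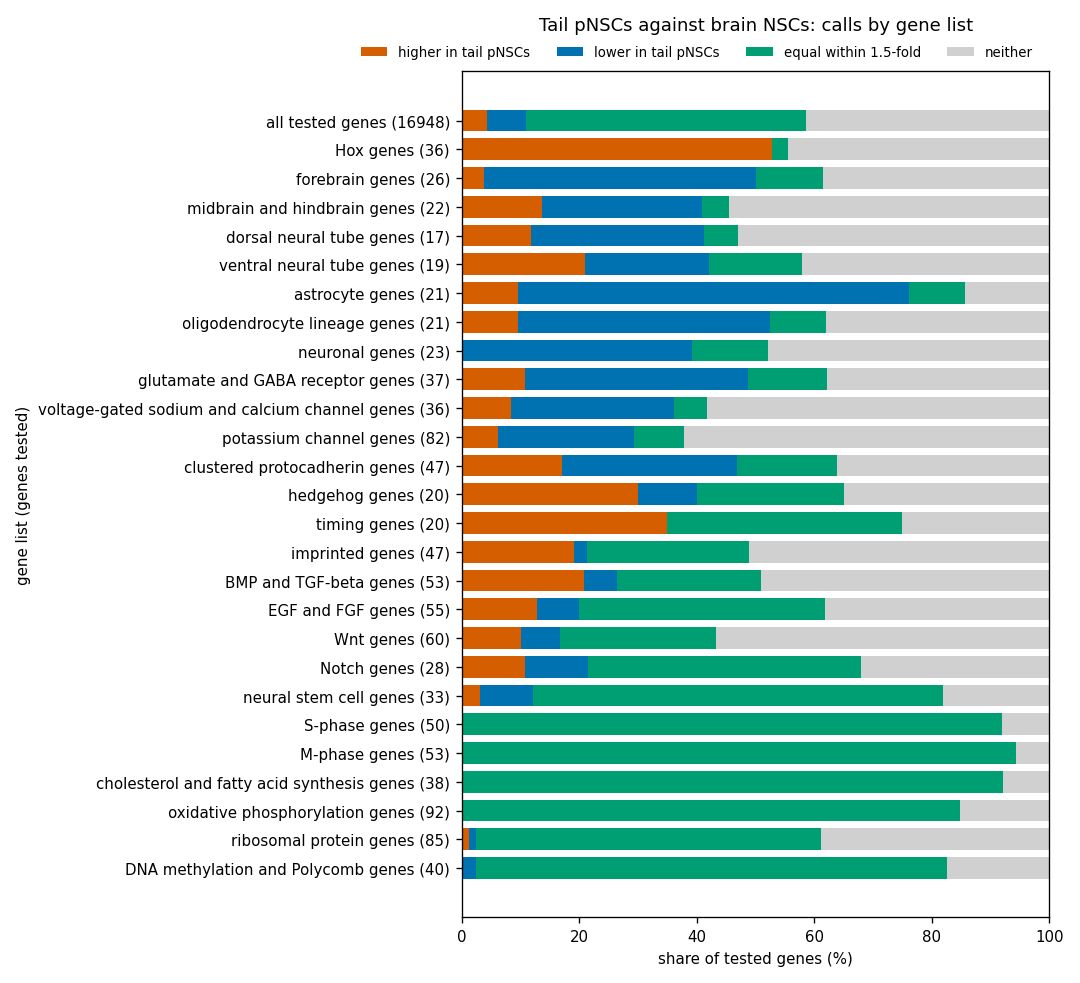
Share of the tested genes of each list (x axis, in percent; the number of genes tested stands after each list name) called higher in tail pNSCs, called lower, equal within 1.5-fold, or neither. The Hox bar is filled by 19 genes higher of 36, the astrocyte bar by 14 genes lower of 21, and the S-phase and M-phase bars by 96 genes equal of 103, where the top bar shows all 16948 tested genes.

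Some genes were read in one line and hardly at all in the other. 16 genes stood at 5 cpm or more in tail pNSCs with at most 3 counts in each brain NSC library, and 9 genes did the reverse. The first set held 6 Hox genes and Nkx6-1, a homeobox gene of ventral progenitors and of motor neuron progenitors, and the second held Zic1 and Nr2e1. Nkx6-1 (chr5:101658139-101664996, minus strand, GRCm38) had 68.1 and 70.5 cpm in tail pNSCs against no count in brain NSCs, which is at least 489.9-fold higher in tail pNSCs. In lung pNSCs, grown from GFP+ cells of adult lung of Nes-GFP mice, Nkx6-1 had no count. Zic1 (chr9:91358058-91365810, minus strand), a zinc finger gene of dorsal neural tube and cerebellum, had the reverse pattern, with no count in tail pNSCs against 76.9 and 72.8 cpm in brain NSCs, lower by a factor of at least 488. Nr2e1 (chr10:42561963-42583632, minus strand), also called Tlx and needed for self-renewal of forebrain neural stem cells, had no count in tail pNSCs against 39.0 and 37.1 cpm in brain NSCs, lower by a factor of at least 248.

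Sequence upstream of the start site is shown for these 3 genes and for Hoxd9, as examples of on and off calls with a promoter listed by RefSeq, chosen after their values were seen. Each line gives the 250 bases before the RefSeq start, 5′ to 3′ on the strand of the gene (GRCm38.p6), with CG dinucleotides, the sites of DNA methylation, in capitals.
Nkx6-1: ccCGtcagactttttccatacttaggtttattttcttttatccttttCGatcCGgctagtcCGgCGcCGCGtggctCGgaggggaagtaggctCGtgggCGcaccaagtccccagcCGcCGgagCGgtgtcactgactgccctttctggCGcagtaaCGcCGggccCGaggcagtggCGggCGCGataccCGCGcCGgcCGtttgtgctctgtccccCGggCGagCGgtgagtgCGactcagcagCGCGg
Hoxd9: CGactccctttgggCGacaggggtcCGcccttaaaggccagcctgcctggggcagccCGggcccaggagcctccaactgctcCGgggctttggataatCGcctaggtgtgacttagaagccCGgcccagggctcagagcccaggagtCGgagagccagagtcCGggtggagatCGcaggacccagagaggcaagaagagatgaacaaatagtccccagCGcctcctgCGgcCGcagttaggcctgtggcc
Zic1: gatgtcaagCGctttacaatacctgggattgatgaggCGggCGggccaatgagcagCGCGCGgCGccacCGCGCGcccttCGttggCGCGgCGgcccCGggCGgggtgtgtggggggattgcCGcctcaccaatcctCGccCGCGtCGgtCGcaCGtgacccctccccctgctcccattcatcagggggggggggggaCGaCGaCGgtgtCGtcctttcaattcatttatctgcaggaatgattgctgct
Nr2e1: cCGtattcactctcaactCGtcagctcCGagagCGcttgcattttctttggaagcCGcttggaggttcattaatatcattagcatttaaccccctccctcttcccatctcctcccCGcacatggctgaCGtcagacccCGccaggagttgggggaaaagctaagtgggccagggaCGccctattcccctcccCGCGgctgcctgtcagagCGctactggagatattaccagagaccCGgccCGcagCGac
Counted over the 300-base window from 250 bases before to 50 bases after the start, Nkx6-1 held 40 CG dinucleotides, more than 92.2% of tested promoters. Zic1 held 31, Hoxd9 20 and Nr2e1 19, against a median of 20 over the 12886 tested genes with a listed promoter. The median was 24 for genes equal within 1.5-fold, 16 for genes higher in tail pNSCs and 17 for genes lower. Of the on genes, 12 had a listed promoter, with a median of 18.5. DNA methylation was not analysed here.

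Of the lists of regional genes, the Hox genes held the most members higher in tail pNSCs. The filter on low counts kept 36 of 39 Hox genes. Of 36 Hox genes tested, 19 were higher in tail pNSCs and none lower, with 16 of them at 0 in both brain NSC samples. The median log2 fold change over the tested Hox genes was 2.72, or 0.85 with genes against a group at 0 set to their bound. The clusters were not used alike: 6 of 11 tested genes were higher in the Hoxa cluster, 7 of 9 in Hoxb and 6 of 7 in Hoxd. None of the 9 Hoxc genes tested had more than 3 counts in any tail pNSC or brain NSC library, although Hoxc13 stood at 82.9 and 77.7 cpm in the primary tail cells.

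In the Hoxb and Hoxd clusters the genes called included paralogues of the thoracic and more caudal body. Hoxd8 had 39.3 and 40.1 cpm in tail pNSCs against no count in brain NSCs (at least 281-fold higher). Hoxb9 (chr11:96271457-96276595) had 25.4 and 22.7 cpm in tail pNSCs against no count in brain NSCs (at least 170.2-fold), and Hoxd9 (chr2:74697727-74700208) had 18.98 and 20.1 cpm in tail pNSCs against no count in brain NSCs (at least 138-fold). Hoxb13, the most caudal gene of its cluster, had 9.33 and 8.41 cpm in tail pNSCs against no count in brain NSCs (at least 62.7-fold). Hoxa10, Hoxb8, Hoxd10 and Hoxd4 were also higher, at 4.05 to 6.66 cpm on average in tail pNSCs. Several neighbours on the chromosome had few or no counts. Hoxa9 had 0.488 and 1.06 cpm, Hoxb7 0.271 and 0.240 cpm and Hoxd11 0.163 and 0 cpm in tail pNSCs, and Hoxb6 and Hoxa11 had no count. Hoxa9 and Hoxb7 still count among the genes called higher. So do other Hox genes below 1 cpm in tail pNSCs, such as Hoxa13 at 0.271 and 0.336 cpm.

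The front part of the Hoxa cluster was on in both lines. Hoxa5 had 20.01 and 21.2 cpm in tail pNSCs against 14.3 and 16.5 cpm in brain NSCs, and Hoxa7 had 5.04 and 5.10 cpm in tail pNSCs against 4.09 and 4.81 cpm in brain NSCs (log2 fold change 0.19 ± 0.18, the one Hox gene equal within 1.5-fold). Hoxa3 (17.8 and 18.0 cpm in tail pNSCs against 5.92 and 6.66 cpm in brain NSCs, 1.51 ± 0.12) and Hoxa2 (5.15 and 4.71 cpm in tail pNSCs against 1.202 and 1.29 cpm in brain NSCs, 1.97 ± 0.25) were higher in tail pNSCs. Over the 6 brain NSC samples of the 2 other reporter lines, Hoxa5 ranged from 0.795 to 6.06 cpm, Hoxa7 from 0 to 0.832 cpm and Hoxa3 from 0.458 to 5.48 cpm, all below the brain NSCs used here. Hoxa2 ranged from 0.298 to 3.55 cpm there, on both sides of the level in the brain NSCs used here. The brain NSCs used here carried Hoxa genes with no count of any tested Hoxb, Hoxc or Hoxd gene. Lung pNSCs had a like Hoxa pattern, with Hoxa5 at 31.9 and 32.4 cpm, while their Hoxb9 was 0 and their Hoxd8 was 1.34 and 1.69 cpm.

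None of the genes that encode partners of Hox proteins was called. Of 11 Meis, Pbx, Pknox and Tgif genes tested, 6 were equal within 1.5-fold. At 10 cpm or more 5 of 10 were equal (50%), against 79.9% of all genes at that level. Meis2 had 80.3 and 83.8 cpm in tail pNSCs against 72.1 and 68.9 cpm in brain NSCs and Meis1 had 63.1 and 67.5 cpm in tail pNSCs against 65.9 and 62.6 cpm in brain NSCs. Among 10 tested genes of the tail bud and caudal body, Tshz2 alone was called (4.94 and 3.85 cpm in tail pNSCs against 0.914 and 0.601 cpm in brain NSCs, 2.52 ± 0.29), and T (brachyury), of the embryonic tail bud, had 1.52 and 1.54 cpm in tail pNSCs against 1.11 and 2.08 cpm in brain NSCs (-0.067 ± 0.30).

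Forebrain genes showed the reverse. Of 26 forebrain genes tested, 12 were lower in tail pNSCs (background 6.59%) and 1 higher, and their median log2 fold change was -0.83. Besides Nr2e1, Otx2, which specifies forebrain and midbrain, had no count in tail pNSCs against 2.93 and 2.59 cpm in brain NSCs (lower by a factor of at least 18.0). Gsx1 and Six3 also had no count in tail pNSCs.

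Other forebrain genes kept a low level in tail pNSCs rather than none. Otx1 had 0.651 and 0.913 cpm in tail pNSCs against 15.7 and 17.5 cpm in brain NSCs (-4.38 ± 0.22), and Dmrta2, which maintains cortical progenitors, had 5.86 and 5.67 cpm in tail pNSCs against 34.7 and 32.6 cpm in brain NSCs (-2.54 ± 0.12). Dlx1, Dlx2 and Eomes were lower as well, all below 2 cpm in brain NSCs. Sp8 was the one forebrain gene higher in tail pNSCs, at 1.74 and 1.78 cpm against 0 and 0.0462 cpm in brain NSCs (a count ratio of 74.6 with an exact 95% counting interval of 13.0 to 2988). Lhx2, a cortical selector gene, was equal, with 35.7 and 39.2 cpm in tail pNSCs against 35.3 and 34.5 cpm in brain NSCs (0.10 ± 0.071), and so was Pou3f1 with 53.2 and 55.5 cpm in tail pNSCs against 54.2 and 56.1 cpm in brain NSCs.

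Genes of midbrain and hindbrain went both ways, with 3 higher and 6 lower of 22 tested. En2, which patterns midbrain and cerebellum, had 0.759 and 0.192 cpm in tail pNSCs against 19.2 and 18.7 cpm in brain NSCs (-5.35 ± 0.21), and En1 was lower at 1.14 and 1.54 cpm in tail pNSCs against 3.41 and 3.37 cpm in brain NSCs (-1.33 ± 0.26). Foxb1 was higher, with 9.54 and 7.64 cpm in tail pNSCs against 0.0962 and 0.139 cpm in brain NSCs (a count ratio of 72.4 with an exact 95% counting interval of 30.7 to 225), and Irx1 was higher with 11.2 and 12.2 cpm in tail pNSCs against 1.15 and 2.31 cpm in brain NSCs (2.74 ± 0.17). Cnpy1, expressed at the midbrain-hindbrain border and among the 12 largest falls of the whole table, had 0.597 and 0.625 cpm in tail pNSCs against 29.8 and 31.5 cpm in brain NSCs (-5.63 ± 0.18).

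Along the dorsoventral axis, 5 of 17 tested dorsal genes were lower in tail pNSCs and 2 higher, against 4 lower and 4 higher of 19 ventral genes. Zic4, which overlaps Zic1 on the opposite strand, had no count in tail pNSCs against 3.51 and 3.61 cpm in brain NSCs (lower by a factor of at least 23.2). Reads of Zic1 and Zic4 cannot be told apart where they overlap, since whether the counting used strand is not given in the sources used here. Zic5 differed little, with 12.3 and 11.9 cpm in tail pNSCs against 13.4 and 11.5 cpm in brain NSCs (-0.038 ± 0.13). Pax7, a dorsal progenitor gene, was higher in tail pNSCs at a low level, with 2.82 and 1.73 cpm in tail pNSCs against 0.192 and 0.0462 cpm in brain NSCs (4.18 ± 0.53).

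On the ventral side Nkx6-2 joined Nkx6-1 (0.976 and 1.30 cpm in tail pNSCs against no count in brain NSCs, at least 8.04-fold higher), while Nkx2-2, of the progenitors next to the floor plate, was lower with 2.66 and 2.31 cpm in tail pNSCs against 13.5 and 11.5 cpm in brain NSCs (-2.33 ± 0.19). Pax6, a gene of forebrain and of intermediate spinal progenitors, was equal, with 43.4 and 43.8 cpm in tail pNSCs against 45.5 and 47.1 cpm in brain NSCs (-0.087 ± 0.070). Olig2, of motor neuron and oligodendrocyte progenitors, was equal at a high level, with 1099.6 and 1130.2 cpm in tail pNSCs against 1041 and 1056 cpm in brain NSCs (0.089 ± 0.030). The plot of Hox levels by sample shows how far apart the lines lay on the head-to-tail genes.

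**Figure D2:**
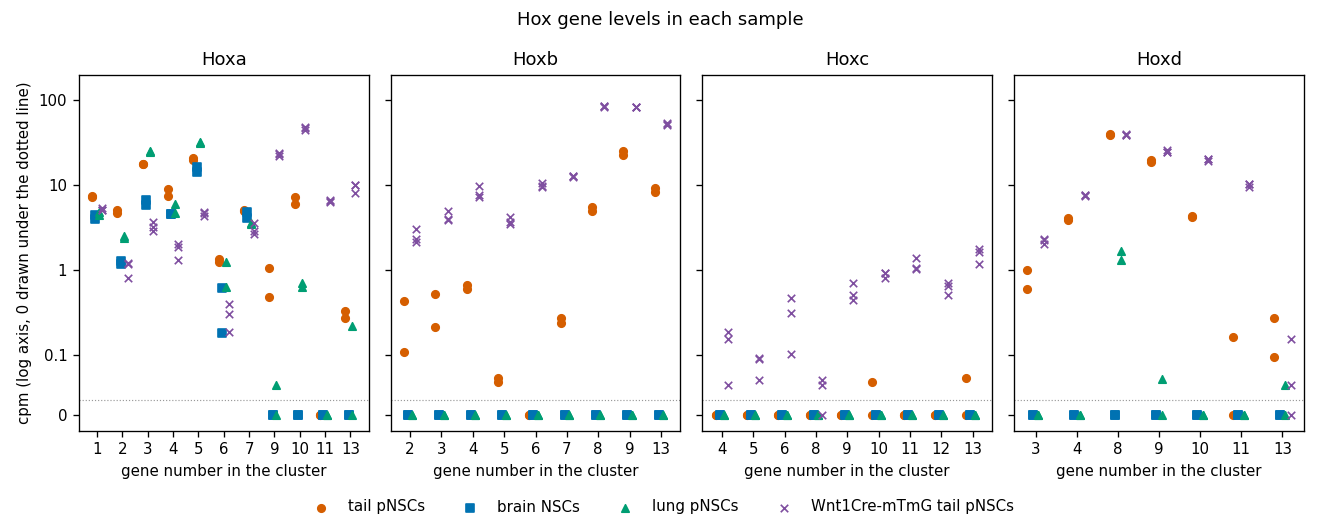
Level of each tested Hox gene (y axis, cpm on a log scale, with samples at 0 drawn under the dotted line) by its number in the 4 clusters (x axis), 1 point per sample, for tail pNSCs, brain NSCs, lung pNSCs and Wnt1Cre-mTmG tail pNSCs, the last on library sizes scaled in another fit. Brain NSCs sit at 0 throughout Hoxb, Hoxc and Hoxd and share the Hoxa genes 1 to 7 with tail pNSCs, and the Hoxc genes are at or near 0 in tail pNSCs.

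Most genes shared by neural stem cells of all regions were equal. Of 33 neural stem cell genes tested, 23 were equal within 1.5-fold, 1 was higher and 3 were lower (9.09%, background 6.59%). Of those at 10 cpm or more, 23 of 32 were equal (71.9%), against 79.9% of all genes at that level. Another 3 of the 32 were lower (9.38%), against 3.21% of all genes at that level. Nes had 1856 and 1810.2 cpm in tail pNSCs against 1339.7 and 1336 cpm in brain NSCs (0.45 ± 0.029), Sox2 had 267 and 262 cpm in tail pNSCs against 319 and 311 cpm in brain NSCs (-0.25 ± 0.034), and Fabp7, a lipid carrier of radial glia, had 2196 and 2146 cpm in tail pNSCs against 2675 and 2577 cpm in brain NSCs (-0.27 ± 0.027). Vim, Olig1 and Zeb1 were equal as well.

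The genes called were Sox1, Ptprz1, Ncan and Prom1. Prom1 was the 1 higher, at 0.705 and 0.577 cpm in tail pNSCs against 0 and 0.185 cpm in brain NSCs. Sox1, an early neuroepithelial transcription factor, had 11.6 and 14.0 cpm in tail pNSCs against 54.4 and 51.4 cpm in brain NSCs (-2.04 ± 0.086). Ptprz1, a receptor phosphatase of radial glia, was lower with 2092 and 2092 cpm in tail pNSCs against 4482 and 4382 cpm in brain NSCs (-1.08 ± 0.026), and Ncan, a matrix proteoglycan, with 498 and 496 cpm in tail pNSCs against 1042 and 1023 cpm in brain NSCs (-1.05 ± 0.031). Both falls lay close to the 2-fold limit. Among the other Sox genes none was called, and 9 of 17 tested were equal, including Sox3, Sox4, Sox9 and Sox11.

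Cell division genes were equal. None of 103 tested genes of S phase and M phase was called, and 96 were equal within 1.5-fold. At 10 cpm or more the shares were 91.8% for S phase and 94.3% for M phase. Mki67, the proliferation antigen Ki-67, had 939 and 912 cpm in tail pNSCs against 832 and 853 cpm in brain NSCs (0.13 ± 0.030), Top2a had 899.7 and 891 cpm in tail pNSCs against 818 and 800.0 cpm in brain NSCs (0.15 ± 0.030), and Pcna, the sliding clamp of DNA replication, had 231 and 241 cpm in tail pNSCs against 228 and 217 cpm in brain NSCs (0.084 ± 0.034). A small shift within the limit ran through S phase, where 48 of 50 genes were above 0 with a median log2 fold change of 0.21.

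Lipid synthesis and respiration genes were equal too. None of 38 cholesterol and fatty acid synthesis genes was called and 35 were equal, with Fasn, fatty acid synthase, at 1046 and 1072 cpm in tail pNSCs against 1079 and 1098 cpm in brain NSCs (-0.040 ± 0.029). None of 92 oxidative phosphorylation genes was called, and 78 of 85 at 10 cpm or more were equal. Here 75 of 92 lay below 0, at a median of -0.16.

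Ribosomal protein genes moved a little the other way. Their median was 0.49, and 79 of 85 lay above 0, so that 63.3% of those at 10 cpm or more were equal within 1.5-fold. Rps3 had 933 and 888 cpm in tail pNSCs against 642 and 655 cpm in brain NSCs (0.49 ± 0.030) and Rpl4 had 1354 and 1399 cpm in tail pNSCs against 1033 and 1031 cpm in brain NSCs (0.42 ± 0.028). The 2 called, Rps3a3 and Rpl32l, are near-identical copies of other ribosomal protein genes, so their counts are uncertain.

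Glycolysis genes had 4 of 26 higher (15.4%, background 4.31%) and none lower (background 6.59%). Pfkl, a phosphofructokinase, had 130.0 and 131 cpm in tail pNSCs against 58.0 and 60.8 cpm in brain NSCs (1.14 ± 0.045), and Slc16a3, a lactate exporter, had 5.31 and 5.34 cpm in tail pNSCs against 0.914 and 1.25 cpm in brain NSCs (2.29 ± 0.23). The enzymes Pkm and Gapdh were equal, Gapdh with 196 and 213 cpm in tail pNSCs against 181 and 185 cpm in brain NSCs. Of 40 genes of DNA methylation and the Polycomb repressors, which hold Hox genes silent, 32 were equal and 1 was called, Phf19 with 7.05 and 8.41 cpm in tail pNSCs against 18.1 and 19.2 cpm in brain NSCs (-1.26 ± 0.12). Bmi1 had 217 and 205 cpm in tail pNSCs against 189 and 182 cpm in brain NSCs and Dnmt1 had 452 and 452 cpm in tail pNSCs against 361 and 363 cpm in brain NSCs. Zinc finger genes were mostly equal, 178 of 198 at 10 cpm or more. Of 342 tested, 9 were higher (2.63%, background 4.31%) and 13 lower (3.80%, background 6.59%).

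Many glial and neuronal genes were lower in tail pNSCs. Of 65 tested genes of astrocytes, oligodendrocytes and neurons, 32 were lower and 4 higher. Astrocyte genes led, with 14 of 21 lower and a median log2 fold change of -2.004 (-1.31 with genes at 0 set to their bound), against 0 over all tested genes. Kcnj10, the potassium channel Kir4.1 of astrocytes, had 6.18 and 5.62 cpm in tail pNSCs against 206 and 206 cpm in brain NSCs (-5.13 ± 0.071, 35.0-fold lower). Aldh1l1, a folate enzyme and astrocyte marker, had 4.56 and 5.53 cpm in tail pNSCs against 73.4 and 76.5 cpm in brain NSCs (-3.88 ± 0.097). Gfap, the intermediate filament of astrocytes, had 0.108 and 0.144 cpm in tail pNSCs against 3.51 and 4.30 cpm in brain NSCs (a brain over tail count ratio of 30.7 with an exact 95% counting interval of 12.9 to 95.8).

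The water channel gene Aqp4, the apolipoproteins Apoe and Clu, and S100b were lower in the same way, S100b with 4.66 and 5.48 cpm in tail pNSCs against 37.9 and 34.6 cpm in brain NSCs (-2.83 ± 0.11). Slc1a2, the main glutamate transporter of astrocytes, had 51.1 and 47.1 cpm in tail pNSCs against 199.9 and 193 cpm in brain NSCs (-2.004 ± 0.043), and Glul, glutamine synthetase, had 293 and 298 cpm in tail pNSCs against 603 and 596 cpm in brain NSCs (-1.02 ± 0.033), close to the 2-fold limit. Sparcl1, a secreted synapse-forming protein, was higher in tail pNSCs, at 374 and 378 cpm against 161 and 159 cpm in brain NSCs (1.23 ± 0.033), as was Hopx. Fgfr3 and Id3 were equal. For each of the 14 astrocyte genes lower in tail pNSCs, both lung pNSC samples lay above both tail pNSC samples, for example Kcnj10 at 101 and 104 cpm and Slc1a2 at 667 and 668 cpm.

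**Figure D3:**
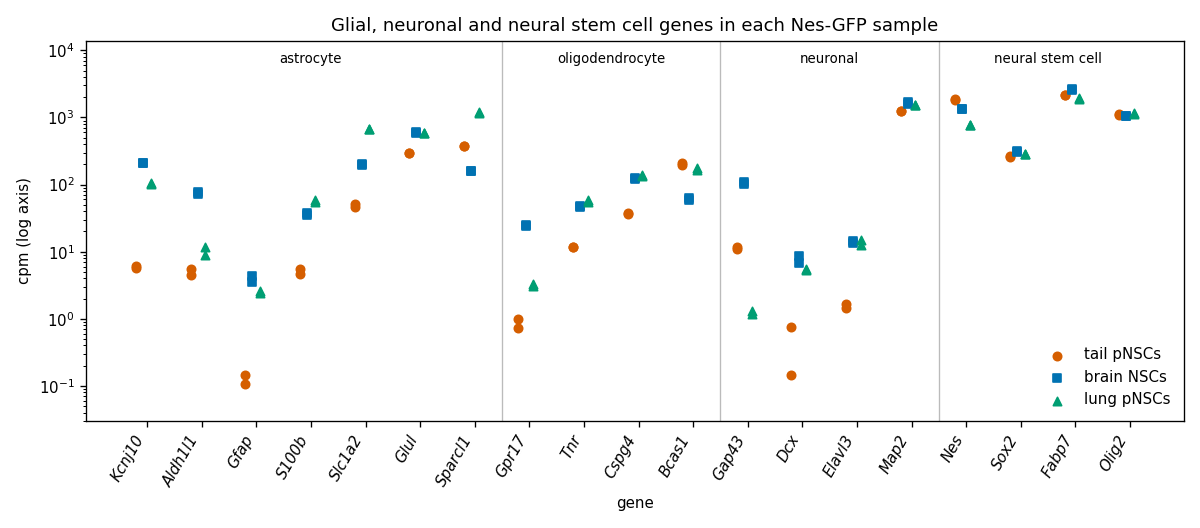
Level (y axis, cpm on a log scale) of genes of astrocytes, oligodendrocyte lineage, neurons and neural stem cells (x axis) in each of the 2 samples of tail pNSCs, brain NSCs and lung pNSCs. Tail pNSCs lie below brain NSCs for Kcnj10 (35.0-fold), Gfap and most other glial and neuronal genes drawn, above them for Sparcl1 and Bcas1, and close to them for Olig2, Sox2 and Map2.

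In the oligodendrocyte lineage, 9 of 21 tested genes were lower and 2 higher. Gpr17, a receptor of early oligodendrocytes, had 0.976 and 0.721 cpm in tail pNSCs against 25.3 and 24.2 cpm in brain NSCs (-4.87 ± 0.19). Cspg4, the NG2 proteoglycan of oligodendrocyte progenitors, had 37.7 and 36.4 cpm in tail pNSCs against 124 and 121 cpm in brain NSCs (-1.72 ± 0.047), and Tnr, a matrix tenascin, had 11.8 and 11.8 cpm in tail pNSCs against 47.2 and 46.0 cpm in brain NSCs (-1.98 ± 0.088). Pdgfra, the growth factor receptor of these progenitors, was low in both lines with 7.97 and 7.79 cpm in tail pNSCs against 9.23 and 7.12 cpm in brain NSCs. Bcas1, a gene of newly forming oligodendrocytes, was higher in tail pNSCs, at 209 and 199 cpm against 62.2 and 59.8 cpm in brain NSCs (1.74 ± 0.043).

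Neuronal genes were lower in 9 of 23 and higher in none. Gap43, a growth cone protein, had 11.1 and 11.6 cpm in tail pNSCs against 108 and 101 cpm in brain NSCs (-3.20 ± 0.078). Dcx, the doublecortin of migrating neurons, had 0.759 and 0.144 cpm in tail pNSCs against 8.51 and 6.84 cpm in brain NSCs (-4.12 ± 0.30), and Elavl3, a neuronal RNA-binding protein, had 1.46 and 1.68 cpm in tail pNSCs against 13.4 and 14.5 cpm in brain NSCs (-3.14 ± 0.19). Map2 was equal at a high level in both lines, with 1240.2 and 1252 cpm in tail pNSCs against 1686 and 1608 cpm in brain NSCs. The proneural factors Insm1 and Hes6 were equal, Hes6 with 75.1 and 71.5 cpm in tail pNSCs against 101 and 98.5 cpm in brain NSCs (-0.44 ± 0.048), and Myt1, a zinc finger gene of early neurons, was lower with 12.4 and 11.4 cpm in tail pNSCs against 48.3 and 45.9 cpm in brain NSCs (-1.99 ± 0.090). Mir124-2hg, host gene of the neuronal microRNA miR-124, had 0.0542 and 0.144 cpm in tail pNSCs against 11.9 and 13.4 cpm in brain NSCs (a brain over tail count ratio of 124 with an exact 95% counting interval of 48.2 to 457). In bulk samples, fewer cells of a type and less RNA per cell cannot be told apart.

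Channels and receptors of excitable cells followed the glial and neuronal genes. Of 155 tested genes of potassium, sodium and calcium channels and of glutamate and GABA receptors, 43 were lower in tail pNSCs and 12 higher. Gria3, a subunit of AMPA-type glutamate receptors, had 5.26 and 3.17 cpm in tail pNSCs against 78.9 and 76.0 cpm in brain NSCs (-4.22 ± 0.098), and Gria2 and Gria4 were lower by less, Gria2 with 117 and 117 cpm in tail pNSCs against 309.6 and 305 cpm in brain NSCs (-1.39 ± 0.036). Kcnip3, a calcium sensor of potassium channels, had 56.8 and 55.7 cpm in tail pNSCs against 317 and 331 cpm in brain NSCs (-2.53 ± 0.040), and Kcna2 had 73.6 and 73.7 cpm in tail pNSCs against 299.8 and 309.6 cpm in brain NSCs (-2.05 ± 0.039).

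Some members went the other way. Cacna1g, a T-type calcium channel, had 16.4 and 15.96 cpm in tail pNSCs against 3.22 and 3.10 cpm in brain NSCs (2.35 ± 0.13). Grm5 and Kcnc1 were equal at high levels, Kcnc1 with 436 and 422 cpm in tail pNSCs against 390.1 and 409.8 cpm in brain NSCs. Solute carriers were lower in 29 (10.4%, background 6.59%) and higher in 12 (4.32%, background 4.31%) of 278 tested. Slc6a6, the taurine transporter, was higher with 49.6 and 48.6 cpm in tail pNSCs against 8.75 and 8.60 cpm in brain NSCs (2.50 ± 0.074). Slc6a9, a transporter that clears glycine, was lower with 19.8 and 21.1 cpm in tail pNSCs against 105 and 104 cpm in brain NSCs (-2.35 ± 0.067).

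Among signalling pathways the hedgehog pathway leaned towards tail pNSCs, with 6 of 20 tested genes higher and 2 lower (background 4.31% and 6.59%). The ligands were near absent: Shh had 0.380 and 0.433 cpm in tail pNSCs against 0.818 and 0.370 cpm in brain NSCs, and Dhh and Ihh were called in opposite directions at levels below 1 cpm, both calls being lost without tail pNSC replicate 2 or brain NSC replicate 1. Of the receptors and coreceptors, Cdon, which binds the ligand, had 243 and 247 cpm in tail pNSCs against 90.5 and 92.3 cpm in brain NSCs (1.42 ± 0.038), and Ptch1, a receptor that is itself a target of the pathway, lay at 180.2 and 184 cpm in tail pNSCs against 247 and 246 cpm in brain NSCs (-0.44 ± 0.036). Smo, the signal transducer, was equal with 179.8 and 189.6 cpm in tail pNSCs against 156 and 154 cpm in brain NSCs. The transcription factors Gli2 (26.5 and 27.6 cpm in tail pNSCs against 7.89 and 8.74 cpm in brain NSCs, 1.70 ± 0.10) and Gli3 (66.1 and 65.7 cpm in tail pNSCs against 28.5 and 28.5 cpm in brain NSCs, 1.21 ± 0.064) were higher, and Hhip, a target and inhibitor, was higher with 4.07 and 4.04 cpm in tail pNSCs against 1.73 and 1.80 cpm in brain NSCs (1.19 ± 0.21).

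In the BMP and TGF-beta pathway 11 of 53 tested genes were higher (20.8%, background 4.31%) and 3 lower (5.66%, background 6.59%). The ligand Bmp7, a dorsal signal, was lower with 50.8 and 53.7 cpm in tail pNSCs against 109.5 and 117 cpm in brain NSCs (-1.11 ± 0.047), and Tgfb3 was higher with 4.23 and 5.10 cpm in tail pNSCs against 0.770 and 0.509 cpm in brain NSCs (2.87 ± 0.26). The receptor Tgfbr2 had 57.0 and 55.1 cpm in tail pNSCs against 15.7 and 14.0 cpm in brain NSCs (1.92 ± 0.063), while Tgfbr1 and Bmpr2 were equal. The secreted inhibitors Fstl1 and Fst were higher, Fstl1 with 96.0 and 97.2 cpm in tail pNSCs against 26.5 and 28.1 cpm in brain NSCs (1.83 ± 0.049), and Fst lost its call without brain NSC replicate 1 (0.86). The signal carriers Smad2, Smad4 and Smad5 were equal. Id4, a target, was lower with 3.80 and 3.99 cpm in tail pNSCs against 15.2 and 13.0 cpm in brain NSCs (-1.86 ± 0.14), whereas Id3 was equal.

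EGF and FGF, the growth factors of the culture medium, act through receptors of the next group. Of 55 EGF and FGF pathway genes tested, 23 were equal (41.8%, background 47.6%). Another 7 were higher (12.7%, background 4.31%) and 4 lower (7.27%, background 6.59%). The receptors Egfr (693 and 700.1 cpm in tail pNSCs against 775 and 755 cpm in brain NSCs, -0.14 ± 0.031) and Fgfr1 (319 and 323 cpm in tail pNSCs against 331 and 342 cpm in brain NSCs, -0.069 ± 0.034) were equal, and so was the early response gene Egr1. Erbb4, a receptor for neuregulins, was lower with 31.5 and 32.5 cpm in tail pNSCs against 95.5 and 94.8 cpm in brain NSCs (-1.57 ± 0.064). The feedback inhibitors Dusp4 (22.7 and 24.5 cpm in tail pNSCs against 6.83 and 6.80 cpm in brain NSCs, 1.79 ± 0.11) and Il17rd (123.3 and 119 cpm in tail pNSCs against 46.3 and 48.4 cpm in brain NSCs, 1.35 ± 0.050) were higher, and Dusp6 lay at 536 and 556 cpm in tail pNSCs against 390.1 and 389.9 cpm in brain NSCs (0.49 ± 0.033).

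Wnt pathway genes had 6 higher (10%, background 4.31%) and 4 lower (6.67%, background 6.59%) of 60 tested. The receptor Fzd4 had 49.2 and 48.9 cpm in tail pNSCs against 21.9 and 20.7 cpm in brain NSCs (1.203 ± 0.064) and the secreted inhibitor Sfrp1 had 61.0 and 62.4 cpm in tail pNSCs against 27.8 and 29.7 cpm in brain NSCs (1.10 ± 0.068). Ctnnb1, which encodes beta-catenin, was equal with 990.4 and 1019.6 cpm in tail pNSCs against 1067 and 1070.3 cpm in brain NSCs, and the ligands Wnt5a, Wnt7a and Wnt7b were equal, Wnt7b with 110.0 and 124 cpm in tail pNSCs against 152 and 159 cpm in brain NSCs (-0.41 ± 0.044). Lef1, a nuclear factor of the pathway, was lower at a low level with 0.271 and 0.0961 cpm in tail pNSCs against 1.64 and 2.40 cpm in brain NSCs (-3.46 ± 0.45). Of 28 Notch genes, 13 were equal (46.4%, background 47.6%). Another 3 were higher (10.7%, background 4.31%) and 3 lower (10.7%, background 6.59%). Notch1 lay at 405 and 395 cpm in tail pNSCs against 313 and 330.0 cpm in brain NSCs (0.32 ± 0.033) and Hes1 at 49.1 and 53.02 cpm in tail pNSCs against 45.4 and 44.0 cpm in brain NSCs.

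Dlk1, an imprinted ligand, had 3.20 and 2.69 cpm in tail pNSCs against 0 and 0.0462 cpm in brain NSCs (a count ratio of 124 with an exact 95% counting interval of 21.9 to 4952), and Maml3, a coactivator of Notch, had 6.02 and 6.30 cpm in tail pNSCs against 0.433 and 0.324 cpm in brain NSCs (4.01 ± 0.28), both higher in tail pNSCs. Dner, a neuronal ligand, was lower with 83.8 and 92.0 cpm in tail pNSCs against 329.8 and 311 cpm in brain NSCs (-1.86 ± 0.038). Of 17 retinoic acid genes, Rarg, a receptor, was higher with 8.95 and 7.64 cpm in tail pNSCs against 2.31 and 3.42 cpm in brain NSCs (1.52 ± 0.15) and 3 were lower, among them Rarb, a receptor and target, with 0.868 and 0.336 cpm in tail pNSCs against 1.59 and 1.25 cpm in brain NSCs (-1.26 ± 0.42). Rarb was not called when tail pNSC replicate 2 (-0.70) or brain NSC replicate 1 (-1.08) was left out.

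Genes of developmental timing were higher where they were called. Of 20 tested, 7 were higher in tail pNSCs, none was lower and 8 were equal. Igf2bp2 and Igf2bp3 encode RNA-binding proteins of fetal cells. Igf2bp2 had 70.4 and 70.4 cpm in tail pNSCs against 3.03 and 3.79 cpm in brain NSCs (4.36 ± 0.10, 20.6-fold higher), and Igf2bp3 had 34.9 and 33.6 cpm in tail pNSCs against 0.529 and 1.25 cpm in brain NSCs (5.24 ± 0.16). Hmga2, a chromatin protein of young neural stem cells, had 45.0 and 47.9 cpm in tail pNSCs against 17.7 and 17.8 cpm in brain NSCs (1.39 ± 0.083), and Nr2f2, a nuclear receptor also known as COUP-TFII, had 35.3 and 33.0 cpm in tail pNSCs against 3.51 and 4.02 cpm in brain NSCs (3.17 ± 0.11).

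Trim71 (Lin41), a target of let-7 microRNAs, was higher with 4.01 and 4.23 cpm in tail pNSCs against 0.577 and 0.740 cpm in brain NSCs (2.63 ± 0.33). The late factors Nfia, Nfib, Nfic and Nfix were equal, Nfia with 214 and 211 cpm in tail pNSCs against 216 and 199 cpm in brain NSCs (0.035 ± 0.035). The age of the brain donors is given only as postnatal or adult, against postnatal day 1 to 5 for the tail donors, so an effect of donor age, if it differed, cannot be told apart from tissue.

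Imprinted genes, expressed from one parental copy, had 9 of 47 higher (19.1%, background 4.31%) and 1 lower (2.13%, background 6.59%). Mest had 1983 and 2086 cpm in tail pNSCs against 977 and 950.3 cpm in brain NSCs (1.08 ± 0.029), Peg10 had 537 and 535 cpm in tail pNSCs against 210.4 and 206 cpm in brain NSCs (1.37 ± 0.034), and Ndn, a growth suppressor of neurons, had 88.5 and 86.8 cpm in tail pNSCs against 26.5 and 29.4 cpm in brain NSCs (1.65 ± 0.061). Grb10, an adaptor that restrains insulin signalling, had 9.22 and 11.2 cpm in tail pNSCs against 1.54 and 1.43 cpm in brain NSCs (2.79 ± 0.16), and Igf2r, which clears IGF2, had 112 and 116 cpm in tail pNSCs against 50.7 and 52.2 cpm in brain NSCs (1.15 ± 0.045). Peg3 and Ube3a were equal, Peg3 with 449 and 444 cpm in tail pNSCs against 541 and 519.7 cpm in brain NSCs.

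Adhesion and matrix genes differed in both directions. Collagens had 7 higher (15.9%, background 4.31%) and 5 lower (11.4%, background 6.59%) of 44. Col12a1, a collagen of fibril surfaces, had 38.6 and 39.7 cpm in tail pNSCs against 5.48 and 4.99 cpm in brain NSCs (2.90 ± 0.074), and the fibril collagen Col5a1 had 49.4 and 50.2 cpm in tail pNSCs against 23.3 and 19.8 cpm in brain NSCs (1.21 ± 0.055), while Col5a2, which pairs with it, was lower with 21.5 and 21.3 cpm in tail pNSCs against 84.7 and 85.1 cpm in brain NSCs (-1.99 ± 0.052). Col4a5, of basement membranes, was lower with 25.5 and 23.7 cpm in tail pNSCs against 66.6 and 72.7 cpm in brain NSCs (-1.50 ± 0.058). Col1a1, the chief collagen of fibroblasts, was higher at a low level, with 2.17 and 1.63 cpm in tail pNSCs against 0.289 and 0.416 cpm in brain NSCs (2.39 ± 0.18).

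Integrins and laminins had 8 higher (21.1%, background 4.31%) and 3 lower (7.89%, background 6.59%) of 38. Itga9, which binds tenascin-C, had 38.4 and 36.6 cpm in tail pNSCs against 1.83 and 2.40 cpm in brain NSCs (4.14 ± 0.12), and Itga5, the fibronectin receptor, had 26.7 and 25.6 cpm in tail pNSCs against 10.4 and 6.80 cpm in brain NSCs (1.60 ± 0.092). The laminins Lamb1 (252 and 248 cpm in tail pNSCs against 97.9 and 99.99 cpm in brain NSCs, 1.34 ± 0.038) and Lama1 (55.4 and 51.8 cpm in tail pNSCs against 22.5 and 23.4 cpm in brain NSCs, 1.22 ± 0.079) were higher, Itgb8 was lower with 208 and 205 cpm in tail pNSCs against 483 and 459.9 cpm in brain NSCs (-1.19 ± 0.034), and Itgb1 and Lamc1 were equal. Of the proteases, Mmp14, which cleaves collagen at the cell surface, had 25.7 and 27.4 cpm in tail pNSCs against 2.93 and 2.17 cpm in brain NSCs (3.38 ± 0.11), Mmp16 had 1.46 and 0.865 cpm in tail pNSCs against 23.5 and 21.4 cpm in brain NSCs (-4.28 ± 0.16), and the inhibitor Timp3 had 9.60 and 9.57 cpm in tail pNSCs against 95.6 and 91.7 cpm in brain NSCs (-3.29 ± 0.064).

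The clustered protocadherins, whose genes give single neurons different surface codes, had 22 of 47 tested called, 8 higher and 14 lower (background 10.9%). The gamma genes held most, with 5 higher and 10 lower of 21, against 1 and 3 of 21 beta genes. Pcdhgb8 had 16.6 and 18.3 cpm in tail pNSCs against 0.144 and 0.416 cpm in brain NSCs (5.92 ± 0.26), and Pcdhga3 had 2.06 and 1.202 cpm in tail pNSCs against 14.4 and 12.2 cpm in brain NSCs (-3.04 ± 0.18). Pcdhgc3 was lower at a high level, with 175 and 180.2 cpm in tail pNSCs against 479.8 and 487 cpm in brain NSCs (-1.45 ± 0.035). Gamma genes share their last exons, so reads of those exons may be split among them.

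Other surface and guidance families gave single examples. Cdh19, a cadherin of glial and crest lineages, had 1.08 and 0.625 cpm in tail pNSCs against 24.8 and 27.5 cpm in brain NSCs (-4.95 ± 0.17), and Cdh2, N-cadherin, lay at 326 and 343 cpm in tail pNSCs against 238 and 233 cpm in brain NSCs (0.51 ± 0.033). Pcdh10 was lower with 61.5 and 56.3 cpm in tail pNSCs against 288 and 277 cpm in brain NSCs (-2.26 ± 0.040). Eph and ephrin genes had 4 higher of 19, all below 5 cpm except Ephb4 with 41.6 and 36.8 cpm in tail pNSCs against 19.1 and 19.2 cpm in brain NSCs (1.03 ± 0.066, and 0.94 without tail pNSC replicate 1). Of 31 semaphorins, plexins and neuropilins, 16 were equal, 2 lower (6.45%, background 6.59%) and 1 higher (3.23%, background 4.31%). The 1 higher was Nrp2 (24.3 and 26.0 cpm in tail pNSCs against 11.4 and 10.3 cpm in brain NSCs, 1.21 ± 0.083). Unc5b, a netrin receptor, was higher with 32.3 and 30.9 cpm in tail pNSCs against 12.9 and 12.9 cpm in brain NSCs (1.29 ± 0.078), and its ligand gene Ntn1 was equal with 369 and 366 cpm in tail pNSCs against 393 and 389 cpm in brain NSCs.

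Markers of neural crest went both ways. Of 23 neural crest genes tested, 2 were higher (8.70%, background 4.31%) and 3 lower (13.0%, background 6.59%). Another 2 were equal within 1.5-fold, and 9 had at most 3 counts in each library of both lines. Prrx1, a homeobox gene of mesenchyme and crest, had 26.1 and 27.4 cpm in tail pNSCs against 7.26 and 5.64 cpm in brain NSCs (2.06 ± 0.10), and Ednrb, the endothelin receptor of crest and of astrocytes, had 259 and 260.2 cpm in tail pNSCs against 829 and 788 cpm in brain NSCs (-1.64 ± 0.034). Pluripotency genes gave no call among 7 tested. Interferon and MHC class I genes were lower in 11 and higher in 3 of 49, with Ifit2 at 4.01 and 4.81 cpm in tail pNSCs against 27.8 and 24.5 cpm in brain NSCs (-2.56 ± 0.12) and B2m equal at 56.5 and 56.7 cpm in tail pNSCs against 46.2 and 46.0 cpm in brain NSCs.

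Beyond the gene groups, the 12 largest rises and 12 largest falls of the table included genes of no fixed family. Fndc3c1, on the X chromosome, had 52.7 and 55.7 cpm in tail pNSCs against no count in brain NSCs (at least 383-fold higher), and Tox2, an HMG-box factor, had 45.6 and 51.6 cpm in tail pNSCs against 0 and 0.0462 cpm in brain NSCs (a count ratio of 2069 with an exact 95% counting interval of 371 to 81765). Both had counts in the other brain NSC samples of the series. Calca, which encodes the neuropeptide CGRP and calcitonin, had 15.5 and 17.3 cpm in tail pNSCs against no count in brain NSCs (at least 116-fold higher) and reached 141 and 139 cpm in lung pNSCs. Mab21l2 had 12.5 and 12.4 cpm in tail pNSCs against no count in brain NSCs (at least 87.7-fold), and Rcn3, a calcium-binding protein of the secretory pathway, had 10.8 and 10.6 cpm in tail pNSCs against 0.240 and 0.185 cpm in brain NSCs (5.62 ± 0.25).

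Among the falls, Ctsc, the lysosomal protease cathepsin C, had 3.42 and 3.56 cpm in tail pNSCs against 284 and 275 cpm in brain NSCs (-6.32 ± 0.067, 79.9-fold lower). Ramp1, a coreceptor for CGRP, had 1.90 and 1.97 cpm in tail pNSCs against 85.5 and 82.2 cpm in brain NSCs (-5.43 ± 0.11), so the peptide gene Calca and this coreceptor gene differed in opposite directions. Ddit4l, an inhibitor of mTOR signalling, had 1.30 and 1.30 cpm in tail pNSCs against 75.2 and 76.8 cpm in brain NSCs (-5.86 ± 0.13), and Dlgap1, a synaptic scaffold, had 0.271 and 0.769 cpm in tail pNSCs against 31.6 and 32.4 cpm in brain NSCs (-5.89 ± 0.18). Lnx1, Thrsp and Zfp125 were also among the largest falls. Zfp125 overlaps 2 other genes on the same strand, so its counts are uncertain.

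A second comparison of the same tissues in the series shares no sample with this one. Wnt1Cre-mTmG mice label cells of neural crest and dorsal neural tube through Wnt1 regulatory elements that drive Cre, and tail pNSCs and brain NSCs from them were sequenced in 3 samples each. Those tail pNSCs were grown from unsorted postnatal tail cells, and the study reports that only pNSCs without the Wnt1-Cre label were obtained. Values are given as mean ± SD (n = 3). In that experiment 2630 of 14448 genes were called (18.2%), 9.16% higher and 9.05% lower. Of genes called higher in Nes-GFP tail pNSCs and tested there, 42.9% were higher there too (21.2% of the genes higher there). Of genes called lower, 37.8% were lower there (29.3% of theirs), and 185 genes were called in opposite directions.

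The difference between the 2 experiments was tested as an interaction by edgeR. It was called for 2701 of 14214 genes (19%). Of 35 Hox genes tested there, 33 were higher, and 18 were higher in both experiments. The interaction was called for 4 of the list. Of the 19 Hox genes called in the Nes-GFP lines, 16 had no count in brain NSCs. For such genes a missing interaction call does not show that the rises were alike. Of the forebrain genes, 11 were lower in both, with the interaction called for 10, among them Lhx2, at 3.33 ± 0.202 cpm in Wnt1Cre-mTmG tail pNSCs against 65.0 ± 3.05 cpm in their brain NSCs (interaction 4.38 ± 0.11). Of the midbrain and hindbrain genes, 3 were higher in both, 2 lower in both and 2 called in opposite directions, with the interaction called for 11. Nkx6-1 reached 92.5 ± 1.28 cpm in Wnt1Cre-mTmG tail pNSCs against 0.579 ± 0.130 cpm in their brain NSCs, and Hoxb9 83.0 ± 0.122 cpm against 0. Hoxa13 (9.42 ± 1.1998 cpm) and Hoxa9 (23.2 ± 0.906 cpm) were higher there than the 0.271 and 0.336 cpm and 0.488 and 1.06 cpm of Nes-GFP tail pNSCs, on library sizes scaled separately for the 2 comparisons.

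Glial genes differed between the experiments. Of the 14 astrocyte genes lower in Nes-GFP tail pNSCs, 4 were lower in Wnt1Cre-mTmG tail pNSCs, and the interaction was called for 13. Slc1a2 stood at 335 ± 5.997 cpm in Wnt1Cre-mTmG tail pNSCs and 210.5 ± 3.65 cpm in their brain NSCs (interaction -2.69 ± 0.048), and Glul at 725 ± 7.97 cpm against 297 ± 9.35 cpm, a called rise (interaction -2.32 ± 0.036). Kcnj10 stood at 218 ± 2.25 cpm against 316 ± 7.38 cpm (interaction -4.61 ± 0.067). Grb10 stood at 604 ± 6.88 cpm against 3.59 ± 0.427 cpm there, a larger rise than in the Nes-GFP lines (interaction -4.62 ± 0.26). Of the timing genes, 6 were higher in both and 1 was called in opposite directions, with the interaction called for 7. Of the imprinted genes, 7 were higher in both, with the interaction called for 10. Of the clustered protocadherins, none was higher in both, 4 were lower in both and 1 was called in opposite directions. The interaction was called for 27 of the 47 tested in the Nes-GFP lines.

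The genes that were equal in the Nes-GFP lines were not all equal there. In the Wnt1Cre-mTmG lines 26 of 38 cholesterol and fatty acid genes were lower in tail pNSCs, with Hmgcs1 at 211 ± 3.25 cpm against 1387 ± 20.7 cpm, where the Nes-GFP lines had 1326 and 1355 cpm in tail pNSCs against 1597 and 1530.0 cpm in brain NSCs (interaction 2.48 ± 0.030). 15 of 50 S-phase genes were lower there, and 45 of the 103 S- and M-phase genes were equal in both experiments. Of 33 neural stem cell genes, 12 were equal there, 7 higher and none lower. The falls of Sox1, Ptprz1 and Ncan in the Nes-GFP lines were thus not called there. The interaction was called for 11 of that list.

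**Figure D4:**
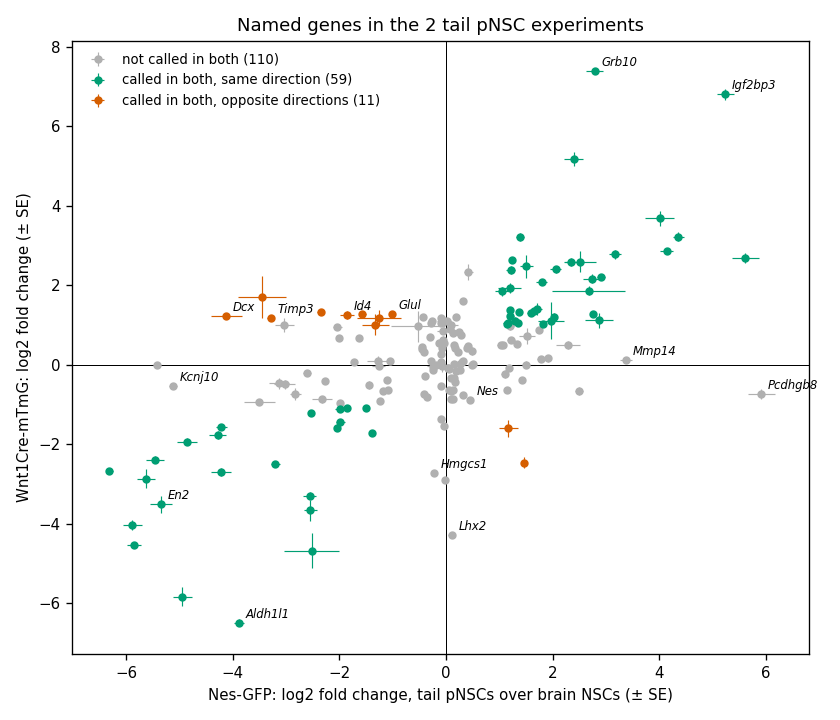
Log2 fold change of tail pNSCs over brain NSCs in the Nes-GFP lines (x axis) and in the Wnt1Cre-mTmG lines (y axis), 1 point per named gene that was tested in both and above 3 counts in both groups of each experiment, with bars of ± SE. Of 180 genes drawn, 59 were called in both in the same direction and 11 in opposite directions, among them Dcx, Timp3, Id4 and Glul.

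The brain NSCs were also set beside the 6 other brain NSC samples of the series, 3 Sox2-GFP and 3 Wnt1Cre-mTmG, as a description without a test. Line, donor and sequencing run cannot be told apart across these experiments. Of the genes higher in tail pNSCs, 52.0% lay above all 8 brain samples (background 18.4%), and of the genes lower, 73.3% lay below all 8 (background 17.8%). The 8 include the brain NSCs that the calls were made against, so part of the excess over background is set by the calls. For 330 genes called higher, the Nes-GFP brain NSCs were the lowest of all, below the tail pNSCs and the other brain samples. Flot2, a membrane raft gene, was of this kind, with 16.3 and 16.4 cpm in tail pNSCs against 0.144 and 0 cpm in brain NSCs (a count ratio of 231 with an exact 95% counting interval of 78.8 to 1125) but 45.3 to 60.2 cpm in the other brain samples. Mxra7 was likewise low in this brain line alone, with 42.1 and 44.3 cpm in tail pNSCs against 0 and 0.139 cpm in brain NSCs and 15.2 to 38.6 cpm elsewhere. The ratios of Tox2 and Fndc3c1 given above also rest on this brain line, since Tox2 ran from 11.2 to 18.0 cpm and Fndc3c1 from 0.762 to 13.1 cpm in the other brain samples. In the Wnt1Cre-mTmG lines Tox2 was higher in tail pNSCs, at 85.4 ± 1.56 cpm against 16.7 ± 1.24 cpm, and Fndc3c1 was not called, at 9.12 ± 0.0658 cpm against 11.97 ± 1.55 cpm.

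Zic1 ran from 3.98 to 122.6 cpm in the other brain samples. Nr2e1 ran from 24.8 to 40.7 cpm there, so its lack of counts set tail pNSCs apart from every brain sample. Hoxd8, Hoxb9, Hoxd9 and Hoxb13 had at most 0.0583 cpm in the other brain samples. Nkx6-1 reached at most 0.733 cpm there. Among the glial genes Aldh1l1 ran from 505 to 1002 cpm and Gfap from 45.1 to 112 cpm over the other brain samples, so the levels in tail pNSCs lay below them all while brain samples differed widely among themselves.

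Chromosome 1 stood apart from the other chromosomes. Over 551 chromosome 1 genes at 10 cpm or more, the median log2 fold change was -0.30, and 82.8% were below 0, whereas the other 19 chromosomes had medians from 0.023 to 0.10. All 10 windows of 20 Mb along the chromosome were low, from -0.41 to -0.23. Relative to the other chromosomes, chromosome 1 lay at -0.37 and -0.37 in the tail pNSC samples and at 0.11 and 0.11 in the lung pNSC samples, with the brain NSCs as reference, and at -0.39 and -0.36 in primary tail cells and -0.40 and -0.39 in primary lung cells. The 18 samples of the other lines ran from -0.38 to -0.32. Brain NSCs and lung pNSCs of the Nes-GFP set lay above all other samples on this chromosome, and tail pNSCs did not.

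Calls on chromosome 1 carried this shift, with 12.5% of its tested genes lower against 6.21% elsewhere. Without it, 693 genes were higher and 989 lower. Of the genes named above, Cdh19, Col5a2, Dner, En1, Erbb4, Glul, Ihh, Kcnj10, Ramp1 and Tnr lie on chromosome 1 and were called lower, and of these En1 and Glul would fall short of 2-fold if the shift of the tail pNSC samples were taken off. No gene of the Hox clusters lies there. In the Wnt1Cre-mTmG comparison the chromosome 1 median was 0.012. The cause was not tested.

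**Figure D5:**
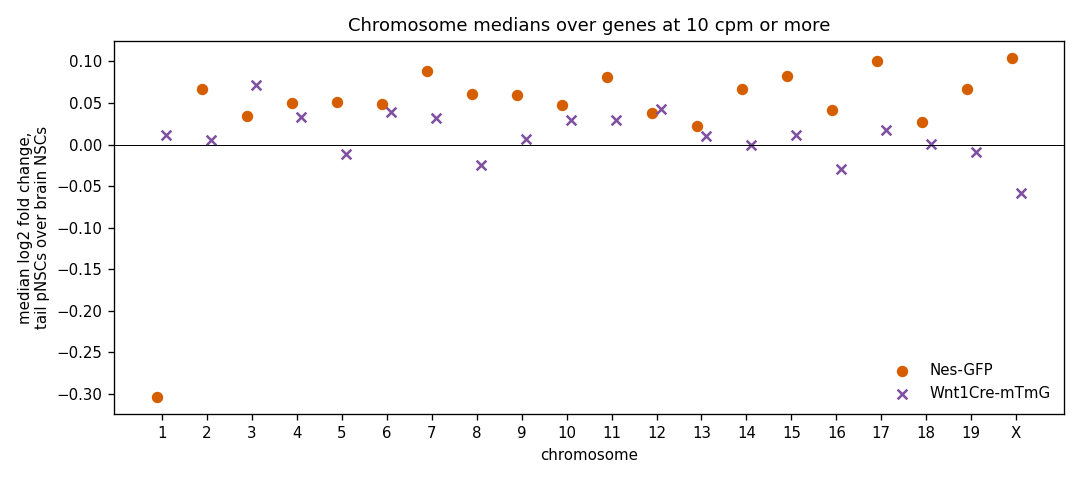
Median log2 fold change of tail pNSCs over brain NSCs (y axis) for each chromosome (x axis), over genes at 10 cpm or more, with 1 point per chromosome for the Nes-GFP lines and 1 for the Wnt1Cre-mTmG lines. Chromosome 1 of the Nes-GFP lines lies at -0.30, and every other point between -0.059 and 0.10.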

How the data were processed

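PolyA RNA was sequenced as single-end reads on a NextSeq500. Per the labels and the methods of the study, the authors aligned reads to GRCm38 with HISAT2, used Cufflinks and deposited HTSeq counts per gene, not normalized. Annotation release, counting mode and strand setting are not given in the sources used here. Groups and replicate numbers came from sample titles, and 0 columns were left unused. Gene positions came from the GRCm38 annotation by symbol.

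Counts of the 10 samples of the 5 Nes-GFP groups (16700710 to 21402778 per sample) were fitted with edgeR 4.0.16 in R 4.3.3, with genes filtered by filterByExpr (minimum count 10, minimum total 15), TMM scaling and the quasi-likelihood test (two-sided, Benjamini-Hochberg over all genes tested). The Wnt1Cre-mTmG comparison used the 12 samples of that experiment, and the interaction the 10 samples of both pairs of lines. The test was tested on simulated data with known changes. Count ratios are for genes with at least 1 count in a group but at most 3 in each of its libraries. They carry exact intervals that cover counting error only. Replicates were not duplicates: their squared differences were 2.33 (tail pNSCs) and 3.00 (brain NSCs) times those of counting alone.

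The gene lists were chosen with earlier results of these data known. Any list member could be named, and over the whole table the 12 largest rises and falls among called genes at 10 cpm or more, Gm, Rik and -ps symbols left out (Pcdhgb8 and Zfp125, annotated as pseudogenes, were kept). Some genes within that rule are not reported here. Fbn1, Col1a2, Pdgfrb and Xist were named as markers, and Flot2 and Mxra7 after their values were seen. Acta2 was also named as a marker and is left out of the statements on named genes. Alternatives were other scalings (RLE, upper quartile), filters, DESeq2 1.42.0, a fit of 4 samples, a replicate block, other thresholds and leaving out samples.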

Additional observations from a re-analysis of the deposited data

Results flagged for a closer look

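The effect of tail against brain differed between the Nes-GFP and the Wnt1Cre-mTmG experiments for 2701 of 14214 genes by edgeR's interaction test. Among the named genes, 14 were called in both experiments in opposite directions and also by that test. For each, the difference of the log2 fold changes, Nes-GFP minus Wnt1Cre-mTmG, follows, so that a negative value is a gene lower in tail pNSCs of the Nes-GFP lines and higher in those of the Wnt1Cre-mTmG lines.

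Of the neural genes, it was -5.37 for Dcx, -2.35 for En1, -2.32 for Glul and -3.70 for Slc6a9. Of the signalling genes, it was -2.85 for Erbb4, -3.12 for Id4, -5.18 for Lef1, -2.45 for Rarb, 2.76 for Fst and 6.93 for Dhh. It was -4.47 for Timp3, 3.91 for Rps3a3, 11.36 for Ddx3y and -11.22 for Zfp125. The values of Dhh, Ddx3y and Zfp125 involve a group at or under 3 counts, so their size depends on the prior count of the fit, and Rps3a3 and Zfp125 share sequence or position with other genes. Rarb, Fst and Dhh were not called in the Nes-GFP lines when a single sample was left out. En1 and Glul lie on chromosome 1. With 2 lines of each tissue, the reporter line, the donors and the clones cannot be told apart.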

How the results depend on the processing

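Calls depended on the threshold and on the filter for low counts more than on scaling or test. With a mean count of at least 100, 707 genes were called in place of 1848, with 246 higher, 461 lower, 4 Hox genes higher in place of 19 and 6 forebrain genes lower in place of 12, since fewer genes were tested. The same filter gave 1255 calls in the Wnt1Cre-mTmG lines in place of 2630 and 1494 for the difference between the experiments in place of 2701. Testing against a 1.2-fold change with glmTreat called 4200 genes, 1915 higher and 2285 lower, and without a minimum fold change 8318 were called, 4354 higher and 3964 lower. DESeq2 called 1679 genes, upper-quartile scaling 1849 (713 higher, 1136 lower) and a fit of the 4 samples alone 1566, with 14 Hox genes higher. DESeq2 and the other thresholds give no count of genes equal within 1.5-fold. The chromosome 1 median was -0.34 with the stricter filter and -0.32 with upper-quartile scaling, against -0.30.

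Leaving out each of the 4 samples in turn gave 1684 to 1749 calls, 675 to 694 higher and 994 to 1074 lower, 17 to 19 Hox genes higher, 11 to 13 forebrain genes lower and 7605 to 7684 genes equal within 1.5-fold. Here a lone sample is taken to vary like the other groups. In the Wnt1Cre-mTmG lines the same gave 2543 to 2647 calls and for the difference between the experiments 2641 to 2702. Without tail pNSC replicate 1, Ephb4 (0.94) and Foxa2 (3.99) were no longer called. Without tail pNSC replicate 2, Dhh (2.37), Ihh (-2.25) and Rarb (-0.70) were not, and Hoxd11 was (4.69). Without brain NSC replicate 1, Dhh (1.88), Fst (0.86), Ihh (-2.89), Rarb (-1.08) and Rfx2 (0.86) were not, and without replicate 2, Foxa2 (4.81) and Hoxa6 (1.04) were not. No named gene reversed its direction under any alternative run.

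The replicate numbers do not pair the samples. The differences between replicate 1 and 2 correlated across 9329 genes at r = 0.042 between tail pNSCs and brain NSCs, and the replicate block gave 1788 calls, 709 higher and 1079 lower, 2625 in the Wnt1Cre-mTmG lines and 2676 for the difference between the experiments. A robust dispersion estimate and the removal of chromosome 1 were chosen after seeing the data and gave 1836 and 1682 calls. With 2 samples per group, genes below 1 cpm could not be shown to be equal.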

Other observations

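Of 31 tested genes that brake the cell cycle or answer to p53, 2 were higher (6.45%, background 4.31%) and 1 lower (3.23%, background 6.59%). The 15 equal within 1.5-fold made up 48.4%, near the 47.6% of all tested genes. At 10 cpm or more 65.2% were equal, against 79.9% of all genes at that level. Plk2, a kinase induced by p53, had 258 and 259 cpm in tail pNSCs against 114 and 113 cpm in brain NSCs (1.19 ± 0.037), and Cdkn2b, an inhibitor of CDK4 and CDK6, had 7.27 and 8.32 cpm in tail pNSCs against 2.60 and 2.91 cpm in brain NSCs (1.501 ± 0.17). Pmaip1, the p53 target Noxa, was lower with 1.90 and 2.07 cpm in tail pNSCs against 4.81 and 4.81 cpm in brain NSCs (-1.27 ± 0.22). The inhibitor Cdkn1b was equal with 128 and 122 cpm in tail pNSCs against 124 and 113 cpm in brain NSCs.

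Of 57 tested genes of metalloproteinases and their inhibitors, 8 were higher (14.0%, background 4.31%) and 6 lower (10.5%, background 6.59%). Besides Mmp14, the sheddase gene Adam19 had 115 and 118 cpm in tail pNSCs against 27.9 and 29.5 cpm in brain NSCs (2.02 ± 0.056) and Adamts14, a procollagen protease, had 52.3 and 51.6 cpm in tail pNSCs against 15.01 and 15.2 cpm in brain NSCs (1.78 ± 0.082). Among 36 Fox genes, 2 were higher (5.56%, background 4.31%) and 5 lower (13.9%, background 6.59%). Foxm1, which drives genes of mitosis, was equal with 146 and 142 cpm in tail pNSCs against 153 and 152 cpm in brain NSCs. Cilium genes held 2 higher and 4 lower of 31, all below 2 cpm except Rfx2, a ciliary transcription factor, with 14.6 and 14.2 cpm in tail pNSCs against 5.96 and 7.95 cpm in brain NSCs (1.05 ± 0.12), which was 0.86 and not called without brain NSC replicate 1. Agt, the angiotensinogen gene, which astrocytes express, was lower with 1.30 and 1.35 cpm in tail pNSCs against 9.91 and 11.7 cpm in brain NSCs (-3.03 ± 0.20) and ran from 11.7 to 364 cpm over the brain NSCs of the other lines.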
